A study of Drosophila melanogaster with 6 samples.

Results

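Serpins are a family of serine protease inhibitors. A target protease cuts an exposed loop of the serpin and is then trapped on it, so that both molecules are used up. In Drosophila many serpins are secreted, and several hold back the protease cascades that activate the Toll receptor or lead to melanin deposition. Serpin genes were taken from the deposited expression table by name, as all genes whose symbol is Spn followed by a number, together with nec (necrotic). This gave 28 of the 17490 genes listed. The genes described in full were selected on their RPKM (reads scaled to exon length and library total), without regard to the group. The 10 serpins that reached 1 RPKM in at least 3 of the 6 libraries are called expressed, and the other 18 are counted as silent.

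GFP+ myoblasts, obtained by sorting dissociated leg discs at 0 h after pupae formation (APF), were compared with the input, which holds all cells of the leg disc. Each group had 3 replicates of the same genotype, R32D05-lexA>lexAopGFP, in which the R32D05 fragment drives GFP in the myoblasts. The input contains the myoblasts too, so a difference between the groups is a difference between myoblasts and the whole disc. A gene can be lower in a bulk sample because fewer cells express it or because each cell holds less of its RNA, and these cases cannot be told apart here. Nothing in the labels says whether replicates came from separate dissections, so p-values measure only the spread between these libraries.

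The RPKM rest on 64759711 to 84316451 reads in the myoblast libraries and on 41455104 to 67763265 reads in the input libraries. The 5 myoblast markers twi, htl, zfh1, Him and Mef2 summed to between 432 and 529 RPKM in myoblasts and to between 68.1 and 92.5 RPKM in the input. The 7 epithelial markers summed to between 59.3 and 77.9 RPKM in myoblasts and to between 215 and 355 RPKM in the input. Of these, 6 were called lower, shg being the exception. Most of the myoblast sum was shg, with 53.6, 72.1 and 64.5 RPKM in myoblasts and 24.7, 57.6 and 45.1 RPKM in the input. Of 5 tendon markers, 4 were tested and all of these were called lower, against 14.8% of all tested genes. The calls of odd, sob and Tsp, of Dll, al, crb and grh, and of He and eater below could only be lower. Each of these genes passed the minimum of 1 RPKM through the input libraries alone. Hemocyte markers summed to between 268 and 389 RPKM in myoblasts and to between 87.4 and 103 RPKM in the input, with Ppn as the largest part in each library. Ppn was called higher in myoblasts, He and eater were called lower and Pxn was not called (5.52% of all tested genes higher and 14.8% lower). Hml and srp stayed under 1 RPKM in every library. Input replicate 1 stood apart, with correlations of 0.875 and 0.915 to the other inputs against 0.954 between those. Its RPKM summed to 963726 over all genes, against 481720 and 589908 in the other inputs. It held 30.7 RPKM summed over 6 fat body markers, where the other inputs held 0.642 and 1.46 and the myoblast libraries 0.340 to 0.674. The 7533 genes past the same minimum were compared with limma on log2(RPKM + 1), and a gene was called where the fold change was over 1.5 and the Benjamini-Hochberg adjusted p under 0.05.

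Serpin RNA was far lower in myoblasts than in the whole leg disc. Summed over the 28 genes, serpin RPKM was 94.6, 82.8 and 91.2 in the myoblast libraries and 670.4, 593 and 653 in the input libraries. As a share of all RPKM this was 0.0141%, 0.0141% and 0.0140% in the myoblast libraries and 0.0696%, 0.123% and 0.111% in the input libraries. Of the 10 expressed serpins, 7 were called lower in myoblasts, none was called higher (limma, and none at an unadjusted p under 0.05), and 3 were not called. Among all tested genes, 20.4% were called, with 14.8% lower and 5.52% higher. The median log2 fold change was -1.26 over the 10 expressed serpins and 0.01 over all tested genes. The minimum of 1 RPKM bears on these counts and on the serpin median. Spn77Ba and Spn28Dc passed it through the input libraries alone and could only be lower in myoblasts. They are given below by their values, with no p. The other 8 expressed serpins reached 1 RPKM in all 6 libraries. Of these, Spn43Aa, Spn100A, Spn88Ea, Spn27A and Spn42Da were called lower.

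**Figure D1:**
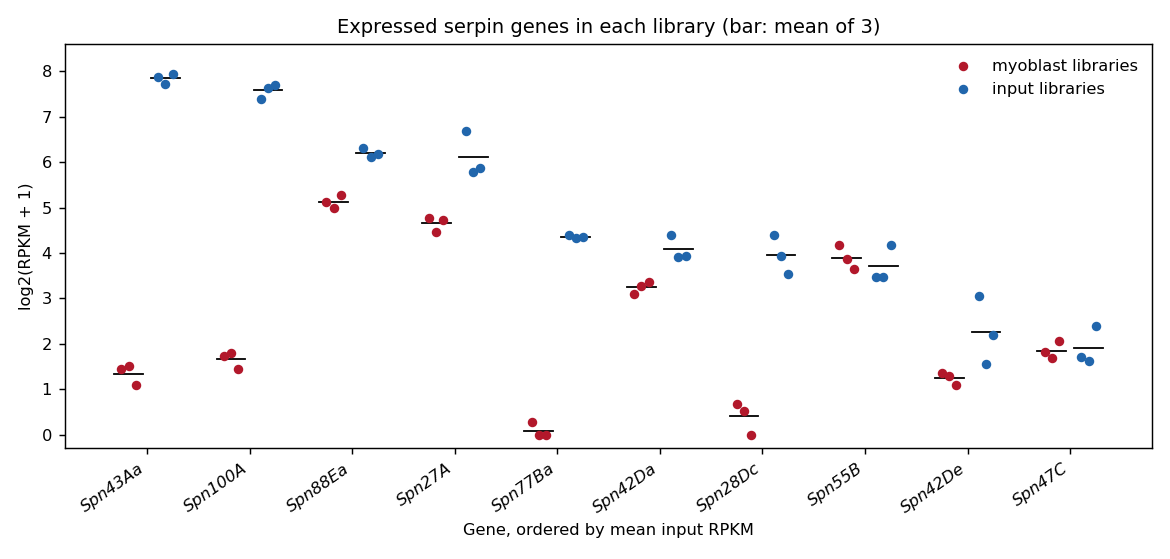
Level of the 10 expressed serpin genes, as log2(RPKM + 1), in 3 myoblast libraries (red) and 3 input libraries (blue), with a bar at each mean. In 8 of the 10 genes every myoblast library lies below every input library, and the points of Spn55B and Spn47C overlap.

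Spn43Aa and Spn100A were the most abundant serpins of the input and were close to the limit of 1 RPKM in myoblasts. Spn43Aa (FBgn0024294, chromosome 2R of dm6, 7147692 to 7149289) had 1.72, 1.83 and 1.12 RPKM in the myoblast libraries and 234, 209.8 and 245 RPKM in the input libraries. The myoblast values rested on 187, 200 and 94 reads, and no myoblast library came near an input library. Its mean was 1.56 ± 0.382 RPKM in myoblasts and 229 ± 17.8 RPKM in the input (SD, n = 3 each), so the myoblast level was 0.679% of the input level. The log2 fold change was -6.50 (SE 0.203, limma adjusted p = 4.90e-06). Exons of Spn43Aa share 116 bases with CG12828 on the opposite strand, which is listed at 0 in all 6 libraries.

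Spn100A (FBgn0039795, chromosome 3R, 30690642 to 30692768) showed the same pattern. Its RPKM was 2.33, 2.46 and 1.74 in the myoblast libraries and 168, 198 and 207 in the input libraries. The lowest input library was far above the highest myoblast library. Spn100A fell by 5.92 on the log2 scale (SE 0.200, limma adjusted p = 4.90e-06), which placed it 13th among all tested genes in order of decrease. At 649 residues it has the longest coding sequence of the 28 serpin genes in the annotation, while that of Spn43Aa is 390 residues long. By mean RPKM among the tested genes, Spn43Aa ranked 6529th in myoblasts and 292nd in the input, and Spn100A ranked 6355th in myoblasts and 357th in the input.

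Spn77Ba and Spn28Dc were expressed at a moderate level in the input and were hardly detected in myoblasts. Both are known to restrain melanization, Spn77Ba in the tracheal system and Spn28Dc in the hemolymph. Spn77Ba (FBgn0262057, chromosome 3L, 20317190 to 20320116) had 0.209, 0 and 0 RPKM in the myoblast libraries and 19.97, 19.0 and 19.6 RPKM in the input libraries. Its only myoblast signal was 38 reads in replicate 1, and in replicates 2 and 3 a count of 0 allows a level of up to 0.0165 and 0.0214 RPKM (3 reads, counting error only). The input libraries differed little, with an SD of 0.476 RPKM around a mean of 19.5. On the log2(RPKM + 1) scale, Spn77Ba was lower in myoblasts by a difference of -4.27.

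Spn28Dc (FBgn0031973, chromosome 2L, 8004548 to 8007210) had 0.603, 0.437 and 0 RPKM in the myoblast libraries and 20.2, 14.3 and 10.6 RPKM in the input libraries. The mean in myoblasts was 2.31% of the mean in the input, and the log2 difference was -3.56. It varied more among the inputs than Spn77Ba did, with an SD of 4.81 RPKM around a mean of 15.0. Of 6 tracheal markers, 5 were called lower in myoblasts, against 14.8% of all tested genes. They include serp and verm, which other epithelia also express, and trh, which passed the minimum through the input alone. The exception was btl, with 1.76, 1.47 and 2.11 RPKM in the myoblast libraries and 0.334, 1.71 and 0.0372 RPKM in the input libraries. The list summed to between 24.3 and 29.5 RPKM in myoblasts and to between 275 and 389 RPKM in the input, where verm alone held most of the sum. The part of tracheal cells in the level of Spn77Ba was not tested.

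Spn88Ea, Spn27A and Spn42Da were called lower in myoblasts but kept a clear level there. Spn88Ea, which restrains Toll signaling and is needed for wing expansion, was the most abundant serpin of the myoblasts. Spn88Ea (FBgn0028984, chromosome 3R, 15203069 to 15206447) had 33.8, 30.9 and 37.8 RPKM in the myoblast libraries and 78.7, 67.8 and 71.6 RPKM in the input libraries. The groups were well separated and the spread within each was small. Its mean was 34.2 ± 3.43 RPKM in myoblasts and 72.7 ± 5.54 RPKM in the input (SD, n = 3 each), and the log2 fold change was -1.07 (SE 0.175, limma adjusted p = 0.00350).

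Spn27A is the inhibitor of the protease Easter, which cuts the Toll ligand Spätzle in the embryo, and it also restrains melanization. Spn27A (FBgn0028990, chromosome 2L, 6671065 to 6673347) had 26.4, 20.9 and 25.4 RPKM in the myoblast libraries and 102, 54.1 and 57.3 RPKM in the input libraries. Input replicate 1 was the highest library by a wide margin, but the groups did not overlap without it either. Its log2 fold change was -1.46 with all libraries (SE 0.271, limma adjusted p = 0.00643) and -1.17 without input replicate 1 (limma adjusted p = 0.000722).

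Spn42Da is an inhibitor of furin-type proprotein convertases and is made in several forms that differ in the reactive loop. The annotation lists 11 transcripts of this gene with 6 different coding lengths, while the table holds a single value for the gene, so the forms were not separated. Spn42Da (FBgn0265137, chromosome 2R, 6875906 to 6878927) had 7.61, 8.65 and 9.22 RPKM in the myoblast libraries and 19.97, 14.1 and 14.4 RPKM in the input libraries. The groups did not overlap, and the log2 fold change was -0.84 (SE 0.233, limma adjusted p = 0.0376). This was the weakest of the calls and was lost in 8 of 14 alternative fits, among them those without myoblast replicate 1, 2 or 3, where the limma adjusted p was 0.107 to 0.157.

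Spn55B, Spn47C and Spn42De did not pass the test. Spn55B (FBgn0028983, chromosome 2R, 18126347 to 18128210) had 17.0, 13.5 and 11.6 RPKM in the myoblast libraries and 10.2, 10.1 and 17.1 RPKM in the input libraries. These ranges are nearly the same, and the log2 fold change was 0.18 with a 95% interval of -0.45 to 0.82 (limma adjusted p = 0.724). It was the only expressed serpin with a positive value. Spn47C (FBgn0033574, chromosome 2R, 10938425 to 10941738) was low throughout, with 2.52, 2.23 and 3.15 RPKM in the myoblast libraries and 2.26, 2.06 and 4.28 RPKM in the input libraries. Its log2 fold change was -0.05 with a 95% interval of -0.79 to 0.68 (limma adjusted p = 0.938), and its sign turned under quantile normalization and when myoblast replicate 2 or input replicate 3 was left out.

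Spn42De (FBgn0033115, chromosome 2R, 6885552 to 6888262) had 1.57, 1.45 and 1.12 RPKM in the myoblast libraries and 7.34, 1.92 and 3.59 RPKM in the input libraries. All input libraries were above all myoblast libraries, but the inputs differed among themselves, with an SD of 2.78 RPKM around a mean of 4.29. The log2 fold change was -1.02 with a 95% interval of -1.96 to -0.08 (limma adjusted p = 0.130). It was called without input replicate 2 (limma adjusted p = 0.0337) and was -0.63 without input replicate 1 (limma adjusted p = 0.117). Under quantile normalization its log2 fold change was -0.10 (limma adjusted p = 0.920).

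**Figure D2:**
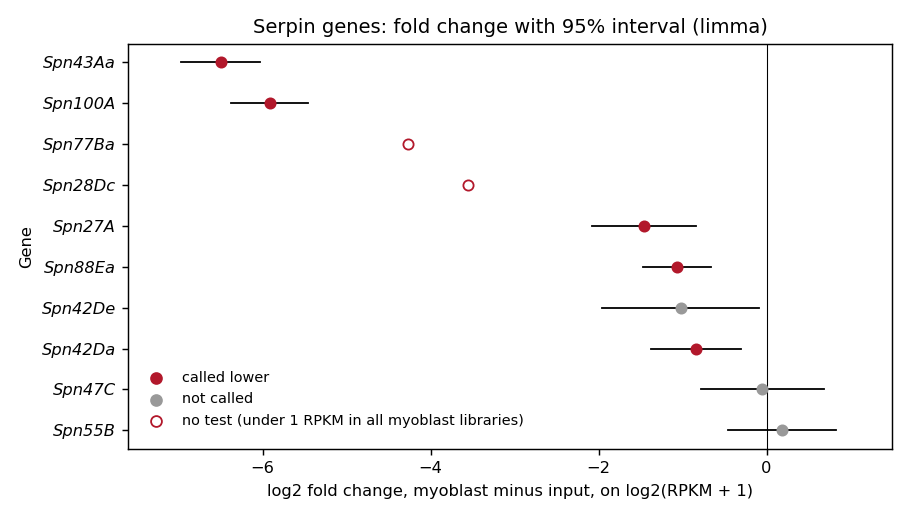
Log2 fold change of myoblasts over the input on the log2(RPKM + 1) scale for the 10 expressed serpin genes, with 95% intervals from limma for the 8 genes that were tested and open circles for Spn77Ba and Spn28Dc. Spn43Aa and Spn100A lie at -6.50 and -5.92, and the other tested genes lie between -1.46 and 0.18.

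In 8 of the 10 expressed serpins every myoblast library was below every input library. Among all tested genes the groups did not overlap in 37.8%, and they were apart with myoblasts lower in 21.5%. For a single gene, an exact permutation test of 3 libraries against 3 (two-sided, 20 arrangements) cannot give a p under 0.1. Of the 8 serpins whose groups did not overlap, it gave 0.1 for each of the 6 that reached 1 RPKM in both groups. Groups that do not overlap always give this value, so it adds nothing to the count above. For Spn55B and Spn47C, whose groups overlap, the exact permutation test gave 0.6 and 0.9. Without input replicate 1 the same number of serpins, 7, was called lower in myoblasts, against 19.5% of all tested genes. Spn77Ba and Spn28Dc are in this count and in that of the 8 genes above, and they could only be lower.

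The make-up of serpin expression differed between the groups. In myoblasts, Spn88Ea held 38.2 ± 2.91%, Spn27A 27.0 ± 1.54%, Spn55B 15.7 ± 2.67% and Spn42Da 9.54 ± 1.30% of the summed serpin RPKM (SD, n = 3), together 90.4 ± 1.52%. These same genes made up 26.9 ± 3.98% in the input (SD, n = 3). Spn43Aa and Spn100A together held 4.20 ± 1.03% in myoblasts and 66.0 ± 5.29% in the input (SD, n = 3 each). Spn88Ea was the highest serpin in each myoblast library and Spn43Aa in each input library. These shares restate the levels above and are no further test of them.

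**Figure D3:**
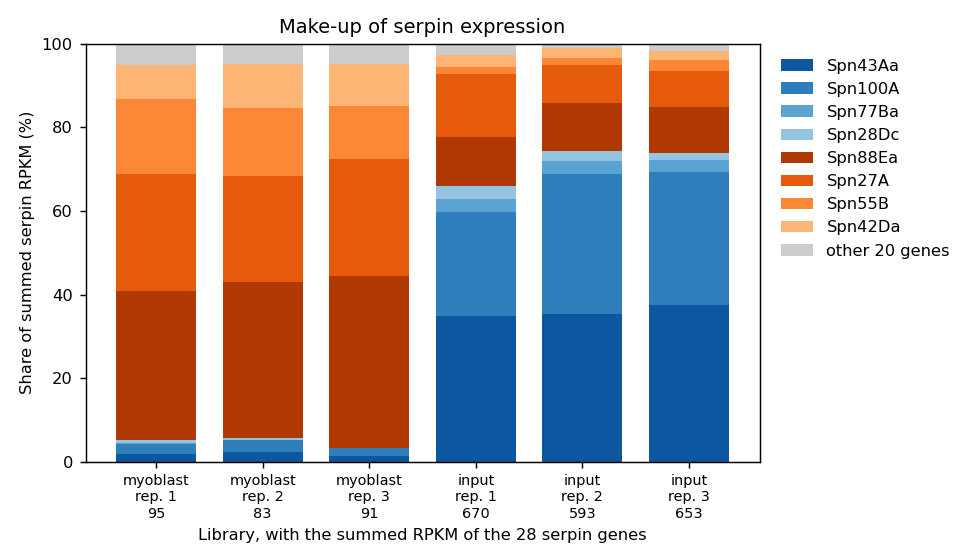
Share of each serpin gene in the summed RPKM of the 28 serpin genes, in percent, for each library, with the sum in RPKM under each bar. Orange shades (Spn88Ea, Spn27A, Spn55B, Spn42Da) fill most of the myoblast bars and blue shades (Spn43Aa, Spn100A, Spn77Ba, Spn28Dc) most of the input bars.

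Of the 18 silent serpins, 12 were listed at 0 in all 6 libraries. These were Spn28B, Spn28Db, Spn28F, Spn31A, Spn38F, Spn42Db, Spn42Dd, Spn43Ad, Spn53F, Spn75F, Spn77Bb and Spn77Bc. Among them is Spn42Dd, which restrains the Toll response to fungi. With 3 reads as the limit, a count of 0 allows a silent gene up to 0.0403 RPKM in a myoblast library and up to 0.0630 RPKM in an input library, for counting error only. Exons of Spn53F share all of their 1279 bases, and those of Spn42Db 380 bases, with antisense genes that are also listed at 0. Whether reads were counted by strand is not stated, so this limit may not hold for these 2 genes. The other 6 silent genes had reads in at least 1 library, and 4 of them reached 1 RPKM in a single library. The minimum acts on the library with the 3rd highest value of a gene. Just inside it were Spn42De at 1.92 RPKM and Spn47C at 2.52 RPKM, and just outside it nec at 0.470 RPKM and Spn42Dc at 0.369 RPKM.

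Among the silent genes with reads, nec (FBgn0002930), which restrains the Persephone branch of Toll activation, was listed at 0 in all 3 myoblast libraries and had 2.75, 0.628 and 0.470 RPKM in the input libraries. Spn42Dc had 0.369, 0 and 0 RPKM in the myoblast libraries and 2.65, 0 and 0.632 RPKM in the input libraries. Spn43Ab had 0.125, 0 and 0 RPKM in the myoblast libraries and 2.70, 0 and 0 RPKM in the input libraries. All 3 genes were highest in input replicate 1. That library also held the most fat body marker RNA. Hemocyte markers were mixed in it. He was at 38.8 RPKM there, against 2.02 and 3.73 RPKM in the other inputs, and eater and NimC1 were also highest there. Hml, which was highest in myoblast replicate 3, and srp stayed under 1 RPKM in every library. Among the inputs both were highest in input replicate 1. Ppn and Pxn were instead lowest there among the inputs. The hemocyte list summed to 93.3 RPKM in input replicate 1, against 103 and 87.4 RPKM in input replicates 2 and 3. The part of fat body cells or hemocytes in the values of nec, Spn42Dc and Spn43Ab was not tested.

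Spn88Eb went the other way among the inputs. It was listed at 0 in all myoblast libraries and had 0, 0.705 and 1.23 RPKM in the input libraries. Spn28Da and Spn85F were found only in myoblast libraries, Spn28Da with 21 and 42 reads in replicates 1 and 2 and Spn85F with 10 reads in replicate 1. These are at most 0.392 RPKM. Exons of Spn85F share 273 bases with CG5359 on the opposite strand, which had 3.87 RPKM in that library, and the sources used here do not say whether reads were counted by strand.

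Many serpin genes lie next to each other in the genome, and neighbours differed widely in level. With a gap of at most 10000 bases, 15 of the 28 genes fall into 5 clusters. The largest, on chromosome 2R from 6875906 to 6888262, holds Spn42Da, Spn42Db, Spn42Dc, Spn42Dd and Spn42De, of which only the outermost genes, Spn42Da and Spn42De, were expressed. A cluster of 4 on the same arm, from 7147692 to 7158241, holds Spn43Aa, Spn43Ab, Spn43Ad and nec. Spn43Aa, at a mean of 229 RPKM in the input, was the only expressed gene there, and it lies on the other strand from its neighbours.

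In the pair on chromosome 3L, Spn77Ba was expressed and Spn77Bb was listed at 0 throughout. In the pair on chromosome 3R, Spn88Ea had a mean of 72.7 RPKM in the input while Spn88Eb had at most 1.23 RPKM. The pair Spn28Da and Spn28Db on chromosome 2L was silent. Expressed members came from clusters in 5 cases, and the other 5 (Spn27A, Spn28Dc, Spn47C, Spn55B and Spn100A) stand alone. Exons of Spn42Da and Spn77Ba share 281 and 94 bases with antisense genes that had at most 0.601 RPKM, and those of Spn88Ea share 6 bases with CG42542. Reads of similar genes can be divided between copies in counting, which was not tested for the serpins.

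**Figure D4:**
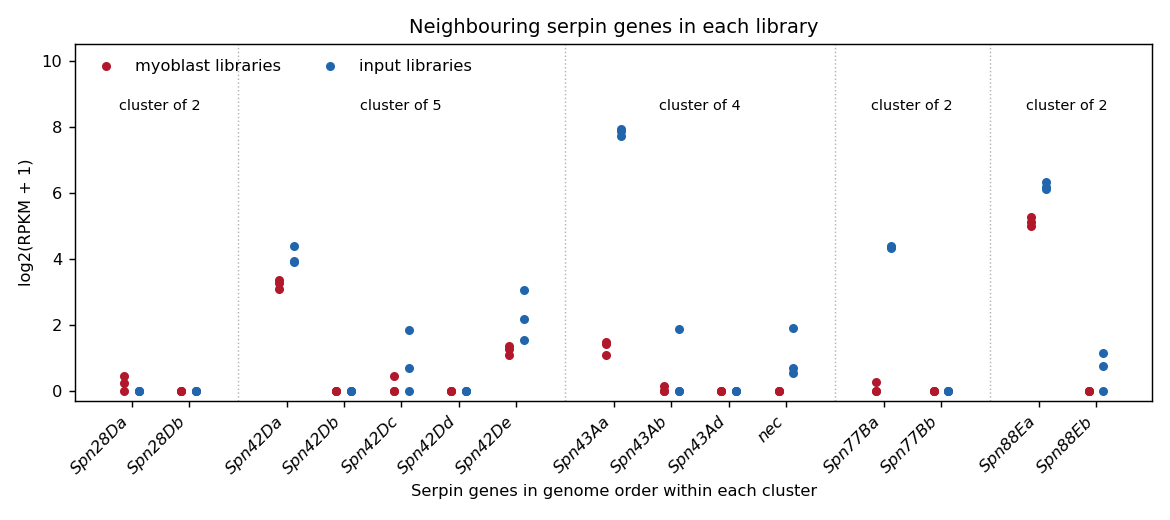
Level of the 15 clustered serpin genes, as log2(RPKM + 1), in each myoblast library (red) and input library (blue), in genome order within each cluster. Spn43Aa and Spn88Ea stand above silent neighbours, and in the cluster of 5 only the first and the last gene reached 1 RPKM in at least 3 libraries.

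Proteases of the Toll and melanization cascades, on which serpins act, were compared next. Of 15 such genes, 14 were in the table and 7 were tested. Of these 5 were called lower in myoblasts, against 14.8% of all tested genes, and 2 were not called, with a median log2 fold change of -1.98. However, 4 of the 5 (spirit, modSP, grass and ea) were under 1 RPKM in every myoblast library and passed the minimum through the input alone. spirit, a protease upstream of Toll, had 0.560, 0.215 and 0 RPKM in the myoblast libraries and 56.7, 26.1 and 28.6 RPKM in the input libraries.

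modSP and grass act in the same cascade. modSP averaged 0.636 RPKM in myoblasts and 26.8 RPKM in the input, and grass averaged 0.529 RPKM in myoblasts and 16.2 RPKM in the input. ea (Easter), the target of Spn27A in the embryo, was listed at 0 in the myoblast libraries and had 3.62, 2.48 and 2.81 RPKM in the input libraries. MP1, a protease of the melanization cascade, was the called gene with a clear level in myoblasts, with 9.71 ± 1.06 RPKM in myoblasts and 37.4 ± 19.3 RPKM in the input (SD, n = 3 each). Its log2 fold change was -1.73 (SE 0.352, limma adjusted p = 0.00988).

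In the list of Toll ligands, receptor and cytoplasmic core, 10 of 14 genes were tested. The receptor gene Tl was the only one called higher, 5 genes were called lower and 4 were not called (5.52% of all tested genes higher and 14.8% lower), with a median log2 fold change of -1.19. Tl had 119.9, 137 and 132 RPKM in the myoblast libraries and 27.1, 48.6 and 37.8 RPKM in the input libraries, and no libraries overlapped. It rose by 1.79 on the log2 scale (SE 0.233, limma adjusted p = 0.00104). The 5 lower genes all stayed under 1 RPKM in every myoblast library and passed the minimum through the input alone. They were the ligand genes spz6, NT1 and spz3, the sulfotransferase gene pip, which acts in the embryonic Toll cascade, and dl (dorsal), a transcription factor downstream of Toll. Mean RPKM of spz6 was 0.485 in myoblasts and 33.0 in the input. For NT1 it was 0.0424 in myoblasts and 5.94 in the input. The log2 fold changes of pip, dl and spz3 were -2.15, -1.71 and -1.54, and the call of spz3 was lost when myoblast replicate 1, 2 or 3 was left out. Under quantile normalization pip, dl and spz3 were not called.

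Of 10 genes of melanin synthesis, 9 were in the table and were hardly expressed there, and 3 were tested, with a median log2 fold change of -0.24. Of these, 1 was called higher, against 5.52% of all tested genes. PPO3, a prophenoloxidase, had 3.44, 3.53 and 2.54 RPKM in the myoblast libraries and 0, 0.795 and 0.457 RPKM in the input libraries and a log2 difference of 1.59. It passed the minimum through the myoblast libraries alone and could only be higher there, so no p is given. Its call was lost without myoblast replicate 1 or 2. PPO1 and PPO2, prophenoloxidases of the crystal cells of the blood, were not called. PPO1 had 0, 0 and 9.19 RPKM in the myoblast libraries and 2.15, 4.32 and 0 RPKM in the input libraries. PPO2 had 0, 0 and 9.60 RPKM in the myoblast libraries and 1.41, 5.90 and 0.453 RPKM in the input libraries. In myoblasts both were thus found in replicate 3 alone.

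The proprotein convertases Fur1 and Fur2, the kind of protease that Spn42Da inhibits, were expressed in both groups and not called. Fur1 averaged 5.80 RPKM in myoblasts and 6.92 RPKM in the input, and Fur2 averaged 15.1 RPKM in myoblasts and 16.2 RPKM in the input. Their log2 fold changes were -0.18 (95% interval -0.88 to 0.52) and -0.02 (95% interval -0.77 to 0.73). The related amon, known from neuroendocrine cells, was listed at 0 in all myoblast libraries and passed the minimum through the input alone, where it had 5.11, 14.1 and 10.0 RPKM, so its call could only be lower. The median log2 fold change of these 3 genes was -0.18.

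All 4 tested genes of the list of membrane and matrix serine proteases were called lower in myoblasts (limma, against 14.8% of all tested genes), with a median log2 fold change of -2.73. Sb (Stubble) and Np (notopleural), transmembrane proteases of leg disc eversion, had log2 fold changes of -3.07 and -2.39. The others were mas and scaf, serine protease homologs without proteolytic activity, at -4.59 and -1.75. Np had 4.79, 3.22 and 1.98 RPKM in the myoblast libraries and 10.3, 33.1 and 26.4 RPKM in the input libraries. The call of scaf was lost without myoblast replicate 3 and with libraries rescaled to the same sum. Under 1 RPKM in every myoblast library were 2 of the 4, Sb and mas. These passed the minimum through the input alone, so their calls could only be lower, and the count and the median include them.

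Protease inhibitors outside the serpin family moved in both directions. Of 9 listed, 7 were tested, 2 were called higher in myoblasts, 4 lower and 1 was not called (5.52% of all tested genes higher and 14.8% lower), with a median log2 fold change of -1.52. The higher genes were Reck and Timp, both inhibitors of matrix metalloproteinases. Reck had 49.1, 59.6 and 49.5 RPKM in the myoblast libraries and 8.08, 10.9 and 12.3 RPKM in the input libraries, a log2 fold change of 2.25 (SE 0.218, limma adjusted p = 0.000227).

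Timp had 20.9, 18.4 and 18.1 RPKM in the myoblast libraries and 11.5, 6.15 and 4.84 RPKM in the input libraries, a log2 fold change of 1.32 (SE 0.309, limma adjusted p = 0.0185). Its call was lost without myoblast replicate 1, 2 or 3 and without input replicate 3. The lower genes were Tep2, Tep3, Tep4 and Mcr, thioester proteins related to the alpha-2-macroglobulins, with log2 fold changes of -2.42, -1.59, -2.21 and -1.52. Tep2 and Tep3 were under 1 RPKM in every myoblast library and passed the minimum through the input alone. Tep3 was at -0.36 and not called under quantile normalization, and Mcr was not called with rescaled library sums (limma adjusted p = 0.0580). The difference between serpins and these other inhibitors was not tested.

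**Figure D5:**
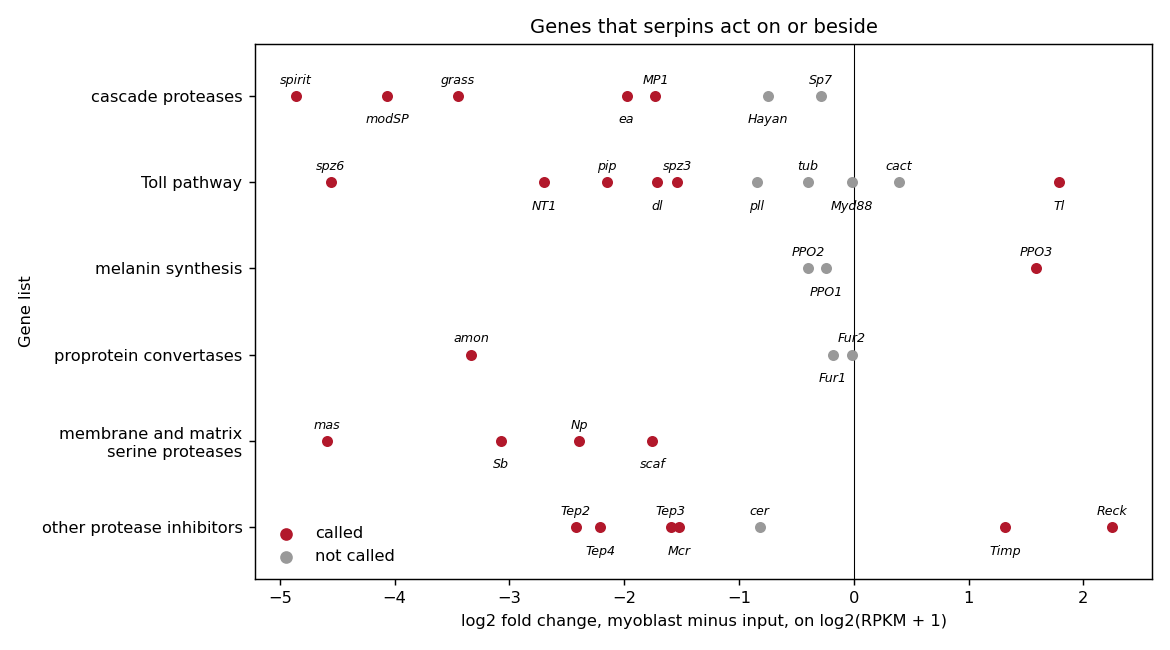
Log2 fold change of myoblasts over the input, on the log2(RPKM + 1) scale, for the tested genes of 6 lists (cascade proteases, Toll pathway, melanin synthesis, proprotein convertases, membrane and matrix serine proteases, other protease inhibitors), red where called by limma and grey where not. Tl, PPO3, Timp and Reck lie to the right of 0 among the called genes, and spirit, mas, spz6 and modSP lie farthest to the left. PPO3, spirit, mas, spz6 and modSP each passed the minimum through a single group.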

How the data were processed

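Sorted GFP+ myoblasts and input cells of leg discs at 0 h APF were sequenced as mRNA in 3 replicates each. The authors filtered reads with Cutadapt, aligned them with HISAT2 2.1.0, counted them with HTSeq 0.11.2 on dm6 and deposited RPKM per gene, computed with Cufflinks as stated in their methods. No read counts were used here. RPKM times exon length (Ensembl release 115, dm6 coordinates, 17216 genes matched) came to whole reads, within 0.05, for 97.3% to 98.6% of the genes that had fewer than 100, which gave the total of reads per library. No molecular identifiers were used, so read numbers cover counting error only.

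Genes with at least 1 RPKM in at least 3 libraries were tested with limma 3.58.1 in R 4.3.3 on log2(RPKM + 1) with the empirical Bayes trend. The pseudocount of 1 understates the change of low genes. Values were summarised with Python 3.11.15. No library pair was identical. The serpin genes and lists were chosen with earlier results of these data known. Each expressed serpin is described in full, and from each list the called genes and up to 4 with the largest changes are named. Alternatives covered the pseudocount, the filter, scaling, the replicate block, the trend and leaving out each library. The listed genes sphe, stw and Tequila were not matched by symbol.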

Additional observations from a re-analysis of the deposited data

How the results depend on the processing

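Of the serpin genes, Spn43Aa, Spn100A, Spn88Ea and Spn27A kept their call in all 14 alternatives. Between 6 and 8 serpins were called, a count that includes Spn77Ba and Spn28Dc, which could only be lower. Spn42Da was lost with no filter, with libraries rescaled to the same sum, with quantile normalization, with the replicate block and without myoblast replicate 1, 2 or 3 or input replicate 3. A pseudocount of 0.1 gave log2 differences of -7.07 for Spn77Ba and -5.45 for Spn28Dc. Quantile normalization moved the median of all genes by 0.16, raised the genes called higher to 809 (50.4% of calls, against 27.1% on the deposited values and 16.3%, or 180 genes, with rescaled sums), left 3 calls in the Toll list and turned the log2 fold changes of Spn47C to 0.81, PPO1 to 0.24, PPO2 to 0.17 and Fur1 to 0.085. It also ended the calls of ea, pip, dl, spz3 and Tep3 and left Spn42De at -0.10. With a mean RPKM over 5, where fewer genes were tested, 920 genes were called, 607 of them lower, and 2, 0 and 0 in the Toll, melanin and convertase lists.

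Leaving out one library at a time gave 903 (without myoblast replicate 3) to 2342 calls (without input replicate 1), 139 to 871 of them higher, and 0 to 1 in the melanin list. Log2 fold changes then ran over -0.20 to 0.19 for Spn47C, -1.35 to 0.32 for PPO1, -1.53 to 0.23 for PPO2, -0.44 to 0.019 for Fur1 and -0.37 to 0.22 for Fur2. Myoblast and input libraries of the same number shared deviations at r = 0.34, 0.26 and 0.01, and those of different number at r = -0.33 to 0.16. The main fit has no replicate block because the study methods state none. Whether the numbers mark pairs was not tested. With the replicate block 6 serpins and 1668 genes were called. The causes were not tested.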
